A study of Mus musculus with 24 samples.

Results

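The report is about chromatin accessibility peaks of mouse ventral hippocampus that carried counts in one of 2 inbred strains and almost none in the other. Members were chosen by a rule on measured values. On chromosomes 1 to 19, a peak needed at least 100 counts in one strain and a level in the other strain of at most 1/20 of that, both as CPM (counts scaled to a common library total) after all cell types and libraries of a strain were summed. Of 294484 peaks on these chromosomes, 269139 had 100 counts in at least one strain, and 365 were chosen. They comprised 262 peaks nearly absent from DBA/2J (D2), or 0.0973% of the 269139, and 103 nearly absent from C57BL/6J (B6), or 0.0383%. The former are called B6-only and the latter D2-only for short, although 42 B6-only and 26 D2-only peaks had some counts in the other strain. The strain contrast of accessibility was used by the rule, so the accessibility values below are a description and were not tested.

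Male mice of B6 and D2, the source of the ventral hippocampus nuclei, were aged 10 to 16 weeks, with about 2 animals pooled for each replicate and 2 libraries for each strain and assay. Single-nucleus ATAC-seq, which counts transposase cuts in open chromatin, and single-nucleus RNA-seq were read out per cell type. B6 is the strain from which the mouse reference genome was built, and D2 is a classical inbred strain that differs from it at many sites. The study mapped B6 reads to the mm10 reference and D2 reads to a copy of mm10 in which D2 single-base variants had been exchanged, without insertions or deletions. For ATAC-seq the paper used no filter on blacklisted regions, stating that these had been removed in building the D2 reference. Whether members lie in such regions was not tested.

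Inbred mouse strains differ in single bases, in insertions and deletions, in mobile elements and in the copy number of segmental duplications. A short read from a sequence that has identical copies elsewhere in the reference cannot be given a single position, and mapping programs commonly drop such reads or give them low quality. A peak can therefore be missing from one strain's counts through lost DNA, through closed chromatin, or through the handling of reads. These routes cannot be told apart from the accessibility counts alone.

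The 4 sequences below are from B6-only peaks, 1 from each of the 3 largest clusters and 1 from the strongest peak outside these clusters, to show how much of each the reference holds once. All are from the + strand of GRCm38 (mm10) as given by RefSeq, up to 300 bases around the centre of the peak. Capitals mark bases that lie in a 32-base word (32-mer) found once in the whole assembly, and lower case marks bases found only in repeated words. They are chr3:88832406-88832705 at the start site of 1500004A13Rik, chr13:23500265-23500564 between genes, chr2:141844809-141845108 in an intron of Macrod2, and chr6:3201053-3201352 between genes.
B6-only, chromosome 3: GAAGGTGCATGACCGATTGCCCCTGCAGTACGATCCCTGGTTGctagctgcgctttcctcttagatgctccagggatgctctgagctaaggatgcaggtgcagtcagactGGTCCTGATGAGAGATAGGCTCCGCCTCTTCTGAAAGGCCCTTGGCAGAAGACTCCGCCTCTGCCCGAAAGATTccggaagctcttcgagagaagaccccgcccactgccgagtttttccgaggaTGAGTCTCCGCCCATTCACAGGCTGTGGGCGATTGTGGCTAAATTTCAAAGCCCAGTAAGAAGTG
B6-only, chromosome 13: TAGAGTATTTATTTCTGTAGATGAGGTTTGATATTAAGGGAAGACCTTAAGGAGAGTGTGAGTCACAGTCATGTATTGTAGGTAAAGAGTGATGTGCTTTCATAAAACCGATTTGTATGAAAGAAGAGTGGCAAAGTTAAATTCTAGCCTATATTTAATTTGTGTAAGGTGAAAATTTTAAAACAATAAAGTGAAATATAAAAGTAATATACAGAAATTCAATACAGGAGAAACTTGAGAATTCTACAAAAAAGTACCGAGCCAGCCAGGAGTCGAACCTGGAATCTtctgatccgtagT
B6-only, chromosome 2: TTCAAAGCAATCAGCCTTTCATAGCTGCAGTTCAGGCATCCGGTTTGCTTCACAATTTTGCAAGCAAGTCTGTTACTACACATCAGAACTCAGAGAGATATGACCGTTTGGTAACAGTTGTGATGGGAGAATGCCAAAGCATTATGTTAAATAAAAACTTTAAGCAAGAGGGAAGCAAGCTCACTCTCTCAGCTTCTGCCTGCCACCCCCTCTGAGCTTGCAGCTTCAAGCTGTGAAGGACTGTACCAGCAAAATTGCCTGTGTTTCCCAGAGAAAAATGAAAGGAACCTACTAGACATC
B6-only, chromosome 6: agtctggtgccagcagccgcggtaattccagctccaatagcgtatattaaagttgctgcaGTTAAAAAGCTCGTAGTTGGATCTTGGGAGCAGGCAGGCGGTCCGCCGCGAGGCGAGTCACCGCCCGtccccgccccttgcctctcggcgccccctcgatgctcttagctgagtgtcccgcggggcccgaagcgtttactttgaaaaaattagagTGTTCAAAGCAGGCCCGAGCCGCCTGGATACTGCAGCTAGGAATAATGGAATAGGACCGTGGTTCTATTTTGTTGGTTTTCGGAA

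The chromosome 2 sequence was in capitals throughout, and 60.7% of the bases were capitals on chromosome 3, 96.0% on chromosome 13 and 50.7% on chromosome 6. The chromosome 6 sequence reads as part of a small-subunit ribosomal RNA gene. Such genes stand in large tandem arrays, and stray copies lie elsewhere in the genome.

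The next 4 sequences are from D2-only peaks, chosen the same way. They are chr19:56510975-56511274 between genes, chr4:42804957-42805255 in an intron of 4930578G10Rik and Gm12394, chr11:3144962-3145261 at a start site of Sfi1, and chr4:122455134-122455433 at the pseudogene Gm12895.
D2-only, chromosome 19: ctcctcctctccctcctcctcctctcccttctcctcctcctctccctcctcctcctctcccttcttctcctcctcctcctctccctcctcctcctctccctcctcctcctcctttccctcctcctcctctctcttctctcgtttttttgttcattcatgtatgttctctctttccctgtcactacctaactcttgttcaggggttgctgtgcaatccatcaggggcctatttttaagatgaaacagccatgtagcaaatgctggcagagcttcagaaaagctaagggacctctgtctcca
D2-only, chromosome 4, cluster: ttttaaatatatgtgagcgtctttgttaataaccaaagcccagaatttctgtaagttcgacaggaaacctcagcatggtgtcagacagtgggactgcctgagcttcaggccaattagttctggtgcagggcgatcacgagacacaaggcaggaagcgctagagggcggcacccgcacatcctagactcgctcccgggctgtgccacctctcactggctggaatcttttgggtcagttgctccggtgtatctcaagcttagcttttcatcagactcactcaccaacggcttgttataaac
D2-only, chromosome 11: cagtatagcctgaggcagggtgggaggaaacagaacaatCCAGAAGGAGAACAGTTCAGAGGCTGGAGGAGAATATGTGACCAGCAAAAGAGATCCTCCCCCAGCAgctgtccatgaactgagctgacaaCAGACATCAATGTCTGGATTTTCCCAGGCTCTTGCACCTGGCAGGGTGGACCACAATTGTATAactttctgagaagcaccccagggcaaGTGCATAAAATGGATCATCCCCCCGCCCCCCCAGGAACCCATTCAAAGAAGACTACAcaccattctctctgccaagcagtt
D2-only, chromosome 4, other peak: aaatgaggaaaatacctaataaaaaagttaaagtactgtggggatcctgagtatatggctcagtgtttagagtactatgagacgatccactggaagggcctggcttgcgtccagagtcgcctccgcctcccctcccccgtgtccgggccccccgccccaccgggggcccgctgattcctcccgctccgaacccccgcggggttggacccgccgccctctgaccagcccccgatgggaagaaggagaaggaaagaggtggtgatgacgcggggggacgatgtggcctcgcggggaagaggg

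No base of the chromosome 19 sequence or of either chromosome 4 sequence lay in a 32-mer that the reference holds once. In the chromosome 11 sequence, 62.3% of the bases did. The other copies of the chromosome 19 sequence are on a scaffold that the reference assigns to chromosome 1 without a position. Those of the peak at Gm12895 are on chromosome 4 itself.

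Library totals over all peaks were 90684494 and 96944385 counts in B6 and 100488916 and 122322471 in D2. For 97.3% of the 269139 peaks the CPM of both strains lay within a factor of 2. No library had 1 to 5 counts at any peak, and the smallest counts above 0 were 6, 8, 7 and 8. The absence of such low counts points to a lower limit on single values, which is inferred here. The paper states that peaks seen in fewer than 10 nuclei were removed. Whether that step gave the listed zeros was not tested. A value listed at 0 was therefore not read as 0 reads. Of 26 marker transcripts, 25 were highest in a cell type they mark, and Lhx6, a marker of MGE-derived interneurons, was highest in Inh-Lamp5.

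Most members were listed at 0 in the strain that lacked them. Of the 262 B6-only peaks, 220 were at 0 in both D2 libraries, 20 in 1 and 22 in neither. Of the 103 D2-only peaks, 77 were at 0 in both B6 libraries, 13 in 1 and 13 in neither. The B6-only peaks held 101 to 6845 B6 counts, with a median of 270, and the D2-only peaks held 101 to 36480 D2 counts, with a median of 234. Many lay near the count limit, since 94 B6-only and 43 D2-only peaks had fewer than 200 counts. Where 10 counts were put for each library at 0, a choice made after the data were seen, 111 B6-only and 34 D2-only peaks stayed at least 20-fold apart.

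The libraries of the strain that had the peak were alike. CPM differed by less than 1.5-fold between the 2 B6 libraries at 257 of 262 B6-only peaks and between the 2 D2 libraries at 98 of 103 D2-only peaks. Among those of the 269139 peaks with counts in every library, that share was 96.9% in B6 and 98.4% in D2. The strain difference of each member was set by the rule, so its size beside this spread is no separate evidence.

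**Figure D1:**
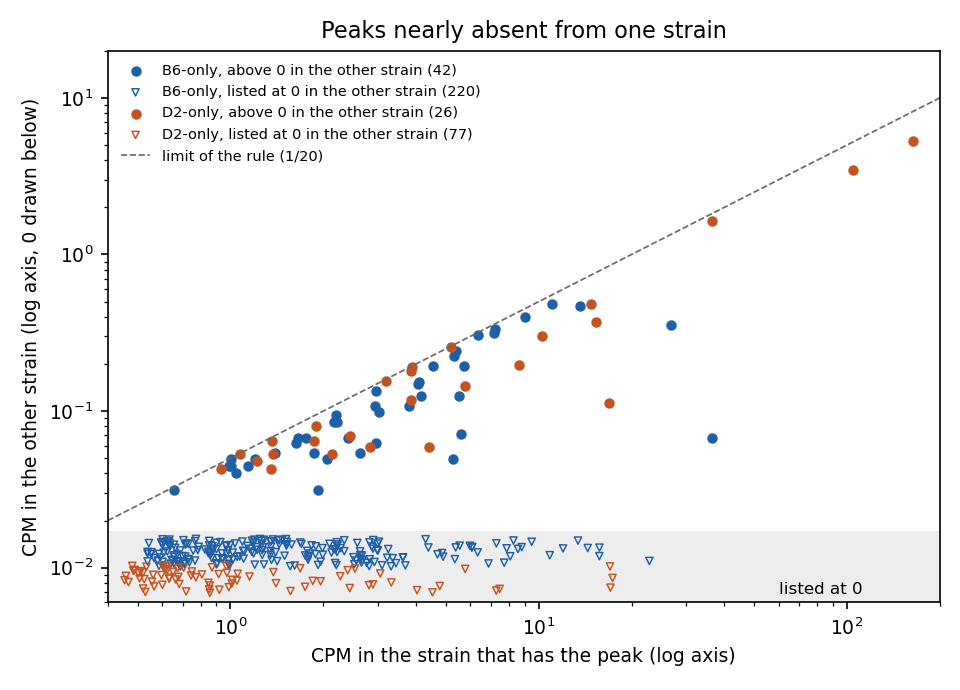
Each symbol is a chosen peak, with its CPM in the strain that has it on the x axis and its CPM in the other strain on the y axis, both logarithmic. Filled circles are above 0 in the other strain (42 B6-only, 26 D2-only), open triangles are listed at 0 there (220 and 77) and are spread vertically inside the grey band so that they can be seen, and the dashed line is the limit of 1/20.

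The limits cut through a continuous range. The B6-only peak closest to the ratio limit had 188 B6 and 11 D2 counts, a CPM ratio of 0.0493, and the peak just outside had 166 and 10 counts, a ratio of 0.0507. In the D2 direction the values were 10 B6 and 239 D2 counts inside, a ratio of 0.0497, and 6 and 141 counts outside, a ratio of 0.0505. At the count limit, the lowest members had 101 counts, and the nearest peaks left out had 99 in B6 and 97 in D2.

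The strongest B6-only peaks lay on 4 chromosomes. The peak chr6:3200811-3201594, the ribosomal RNA sequence shown above, had 3368 and 3477 counts in B6 and 0 and 15 in D2. The peak chr17:33980589-33981766, at the pseudogenes Gm4152 and H2-K2 in the major histocompatibility region, had 2450 and 2572 in B6 and 30 and 49 in D2. Both were far higher in each B6 library than in either D2 library. The peak chr6:47747931-47748564 had 2119 and 2170 in B6 and was listed at 0 in both D2 libraries, and only 4.31% of its 32-mers occurred once in the reference. The peaks chr2:141844191-141845727 in Macrod2 (1432 and 1522 in B6) and chr12:20919755-20921618 at the pseudogene Zfp125 (1402 and 1550) were also listed at 0 in both D2 libraries.

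Of the 5 strongest D2-only peaks, 3 were higher than any other member and lay in Sfi1, which encodes a centrin-binding protein of the centrosome. The peak chr11:3143955-3146269 had 496 and 501 counts in B6 and 16919 and 19561 in D2, chr11:3157710-3158730 had 323 and 331 against 10979 and 12278, and chr11:3163709-3164712 had 148 and 157 against 3873 and 4286. B6 was not at 0 at any of these, so both strains had counts there at very unequal levels. Much of this cluster's sequence is repeated on a scaffold, as given below. How reads were divided among the copies was not tested. The other 2 were chr4:122455126-122455442 at Gm12895 (1539 and 2328 in D2) and chr19:56510394-56511855 (1625 and 2183 in D2), both listed at 0 in both B6 libraries.

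Members stood together along the chromosomes. Peaks of the same direction were joined where consecutive ones lay within 100 kb. The 262 B6-only peaks then formed 199 clusters, of which 35 held 2 or more and together 98 members (37.4%). The 103 D2-only peaks formed 64 clusters, and 14 of these held 2 or more, together 53 members. Of the peaks directly next to a B6-only peak, 106 of 524 (20.2%) were B6-only too, against 0.089% of all peaks on these chromosomes. Next to D2-only peaks, 60 of 205 (29.3%) were D2-only, against 0.035%.

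Members were unevenly spread over chromosomes. B6-only peaks made up 0.234% of the peaks on chromosome 14 (32 of 13693) and 0.178% on chromosome 7 (27 of 15189), against 0.00771% on chromosome 15 (1 of 12970). D2-only peaks made up 0.131% on chromosome 19 (10 of 7614), 0.0993% on chromosome 4 (18 of 18125) and 0.0769% on chromosome 1 (18 of 23405), and chromosomes 15 and 18 had none. The D2-only share on chromosome 19 came mostly from the cluster of 9 peaks on that chromosome.

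Peaks that were no members also lay inside the spans of these clusters. In the 35 B6-only spans there were 32 such peaks, in 13 of the spans. Of these, 18 had at least 0.5 of the B6 level in D2, 11 lay between 1/20 and 0.5, and 2 were at most 1/20 with too few counts for the rule. In the 14 D2-only spans there were 24, in 8 spans, of which 7 were shared in that sense, 10 lay between and 6 were at most 1/20. The distance between the nearest shared peaks (other strain at 0.5 or more) on both sides of a cluster had a median of 22.7 kb for B6-only and 125.3 kb for D2-only clusters.

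The largest B6-only cluster was chr3:88784760-88835553, with 11 of 13 peaks in the span. It runs through the long noncoding gene 1500004A13Rik next to Gon4l, which encodes a nuclear regulator of transcription. Its members summed to 3377 and 3641 counts in B6 and to 0 in both D2 libraries, and the nearest shared peaks around it were 63.0 kb apart. The second, chr13:23490702-23507329 at Btn2a2, a butyrophilin gene, had 6 of 6 peaks with 1815 and 2159 B6 counts.

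The third was a run of 5 peaks in an intron of Macrod2, which encodes an enzyme that removes ADP-ribose from proteins. It spanned chr2:141844191-141877293, with 2822 and 2852 counts in B6 and 0 in both D2 libraries, and all 5 peaks in the span were members. The nearest shared peaks were 42.0 kb apart. Its sequence is not repeated in the reference, as the sequence from its strongest peak shows.

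The next clusters by size were wider. On chr7:60621926-60733964, 4 of 4 peaks had 1617 and 1586 counts in B6. On chr12:20889922-20990965, 3 of 4 peaks at Asap2, Zfp125 and 3110053B16Rik had 2217 and 2471, and both clusters were at 0 in D2.

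The largest D2-only cluster was chr19:56494017-56521013, where 9 of 9 peaks summed to 4945 and 6266 counts in D2 and to 0 in both B6 libraries. It overlaps no gene body. Every 32-mer of its members also lies on a scaffold of the reference that is assigned to chromosome 1 without a position, and neither strain had a peak on that scaffold. The second, chr4:42734790-42812404, held 7 members with 1043 and 1283 D2 counts at Gm12394, 4930578G10Rik and the chemokine gene Ccl19, and again every 32-mer was repeated on a scaffold.

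The third was the run of 6 peaks in Sfi1 on chr11:3132881-3164712. It had 1052 and 1086 counts in B6 and 36650 and 41726 in D2, which was 61.2% of all D2 counts in D2-only peaks. Many flanking peaks outside its span were also higher in D2 than in B6, as the profiles show, and 58.6% of the members' 32-mers are repeated on another scaffold. On that scaffold B6 had 29 peaks with 26390 and 23305 counts and D2 had none.

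Further D2-only clusters lay at chr1:85257949-85323421, where 6 members had 324 and 563 D2 counts and 0 in B6, and at chr1:171534587-171552644 by Itln1, which encodes a carbohydrate-binding lectin. The 3 members at Itln1 had 26 and 28 counts in B6 and 1111 and 1377 in D2. Of the 7 peaks in that span the other 4 lay between 1/20 and 0.5.

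**Figure D2:**
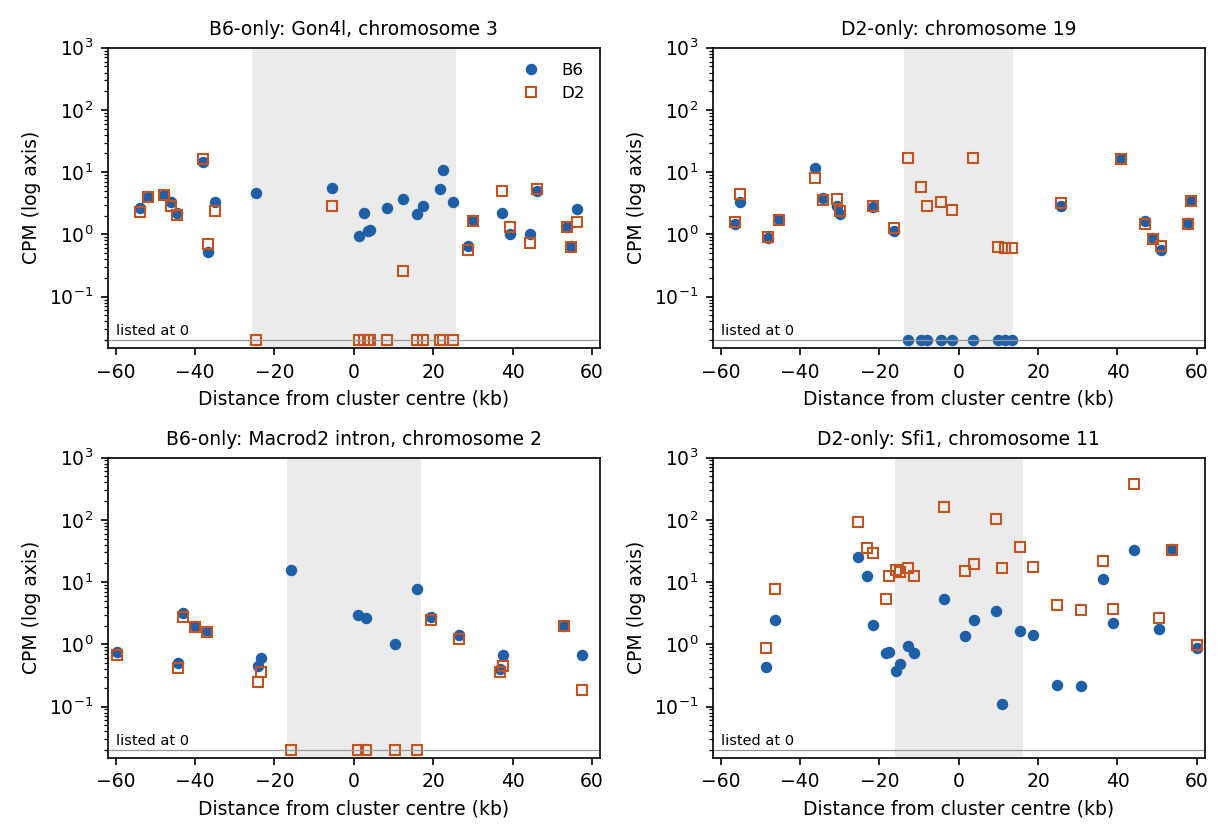
CPM of every peak in B6 (filled circles) and D2 (open squares) on a logarithmic axis, against distance in kb from the centre of 4 clusters, with the cluster span in grey and values listed at 0 drawn on the lowest line. In the chromosome 3, 2 and 19 panels the strains lie close together outside the span and one strain drops to the lowest line at most peaks inside it, while in the Sfi1 panel both strains are above 0 and D2 is higher at many flanking peaks too.

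The sequence of the members was not used by the rule. It was compared with 5376 other peaks, taken at regular steps from the 269139. The median share of 32-mers that occur once in the reference was 76.0% in B6-only, 36.7% in D2-only and 100% in the other peaks. Under 50% unique were 70 of the B6-only peaks (26.7%), 58 of the D2-only peaks (56.3%) and 0.67% of the other peaks.

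Copies on unplaced or unlocalized scaffolds covered most of a peak mainly among D2-only peaks. No 32-mer lay on a scaffold in 74.0% of B6-only, 53.4% of D2-only and 86.4% of the other peaks, so smaller overlaps occurred in each group. More than 50% of the 32-mers lay on a scaffold in 32 of 103 D2-only peaks (31.1%), in 0 of 262 B6-only peaks and in 2 of the 5376 other peaks (0.0372%). These 32 peaks lay in 6 clusters and carried 53.4% of the D2-only counts. The Sfi1 cluster was among the 6. All its members together held 61.2% of the D2-only counts, so the share of the 32 peaks rested largely on it. In 19 of the 32 peaks every 32-mer was on a scaffold. All 43 peaks that the count table has on scaffolds were at 0 in D2, while B6 had 86786 counts there.

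Copies elsewhere on the same chromosome were common in both directions. They covered more than 50% of the 32-mers in 52 B6-only peaks (19.8%) and 35 of 103 D2-only peaks, against 0.26% of the other peaks. Copies on other autosomes did so in 27 B6-only peaks (10.3%) and 5 D2-only peaks (4.85%), against 0.446%. More than 50% repeat-masked bases were found in 21.0% of B6-only, 22.3% of D2-only and 4.45% of the other peaks.

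Another group of members was nearly free of repeated sequence. At least 95% of the 32-mers were unique in 92 B6-only peaks (35.1%) and 23 D2-only peaks (22.3%), against 87.3% of the other peaks. Of these, 74 and 11 were at 0 in both libraries of the other strain. The 5 peaks in Macrod2 belong to this group. A D2 assembly was not used here, so whether D2 DNA lacks these intervals was not tested.

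**Figure D3:**
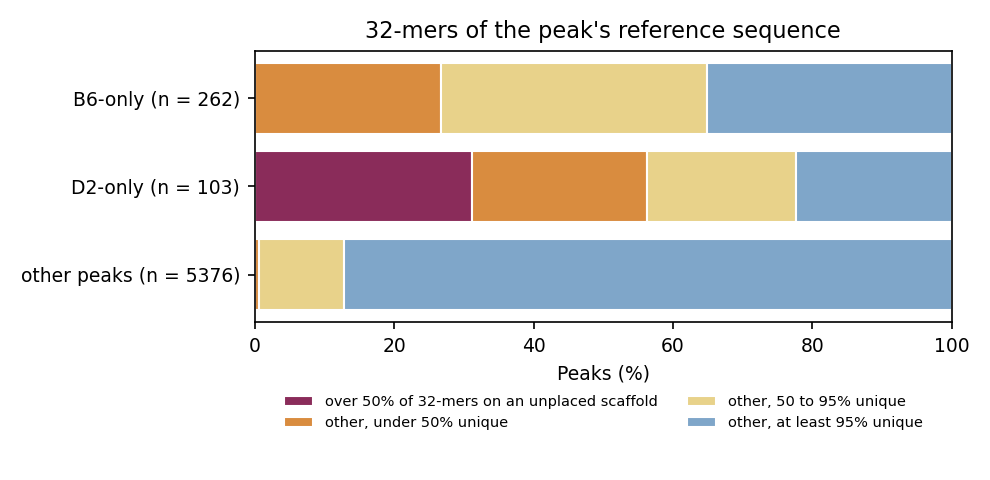
Stacked bars give the percentage of peaks in 4 sequence classes, by the share of the peak's 32-mers on unplaced or unlocalized scaffolds and the share found once in the reference, for B6-only peaks (n = 262), D2-only peaks (n = 103) and other peaks (n = 5376). The scaffold class holds 31.1% of D2-only and no B6-only peaks, and the class with at least 95% unique 32-mers falls from 87.3% of other peaks to 35.1% and 22.3%.

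A D2-only peak chosen after its values were seen carried mitochondrial sequence. Nuclear genomes hold inserted copies of mitochondrial DNA, and chr1:24612289-24612814, at the pseudogenes Gm10222, Gm28438 and Gm28439, had 95.2% of its 32-mers on the mitochondrial genome. It had 1020 and 603 counts in D2 and 0 in both B6 libraries. The D2 libraries differed more here than at most members, with 10.2 and 4.93 CPM.

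By annotation, the largest class of members was intergenic. It held 50.4% of the B6-only, 48.5% of the D2-only and 34.7% of all 269139 peaks, while introns held 27.5%, 18.4% and 44.2%. A start site lay within 1 kb for 54 B6-only peaks (20.6%) and 20 D2-only peaks (19.4%), against 12.9% of all. Of the start-site members, 25 of 54 B6-only (46.3%) and 6 of 20 D2-only were at a pseudogene, against 6.88% of all start-site peaks. B6-only peaks were shorter than usual, with a median of 486.5 bases, and D2-only peaks were shorter still at 357 bases.

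Within single cell types most members were nearly absent from the same strain. The rule used the sum of these cell type counts, so this is a description and no separate evidence. A peak listed at 0 in both libraries of a strain was at 0 there in every cell type. In dentate gyrus granule neurons (Exc-DG), 204 of 213 B6-only peaks with at least 20 counts there were at most 1/20 in D2 in that cell type, and none was above 1/5. For D2-only peaks in Exc-DG the numbers were 79 of 83 and none. In Exc-CA3, CA3 pyramidal neurons, 214 of 223 B6-only and 76 of 80 D2-only peaks were at most 1/20. In the inhibitory Inh-MGE type it was 85 of 88 and 25 of 32. Among D2-only peaks, 1 was above 1/5 in Exc-CA1-Fras1 and 1 in Inh-CGE, where 23 of 28 were at most 1/20. Over the 15 cell types, the ratio of summed CPM ranged from 0.00717 to 0.0169 for B6-only and from 0.00708 to 0.0366 for D2-only peaks.

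Cell type shares of B6-only counts followed those of all peaks. Exc-DG held 23.7% of the B6-only counts and 24.3% of all B6 counts, Exc-CA1-Galntl6 held 19.8% and 18.6%, and Exc-CA3 held 18.6% and 17.0%. D2-only counts departed more. Exc-Gpc6 held 9.71% of them against 4.84% of all D2 counts, and Inh-MGE held 2.99% against 6.35%. Without the Sfi1 cluster, left out after the data were seen, these shares were 5.41% for Exc-Gpc6 and 4.32% for Inh-MGE, so the first rested mostly on that cluster.

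**Figure D4:**
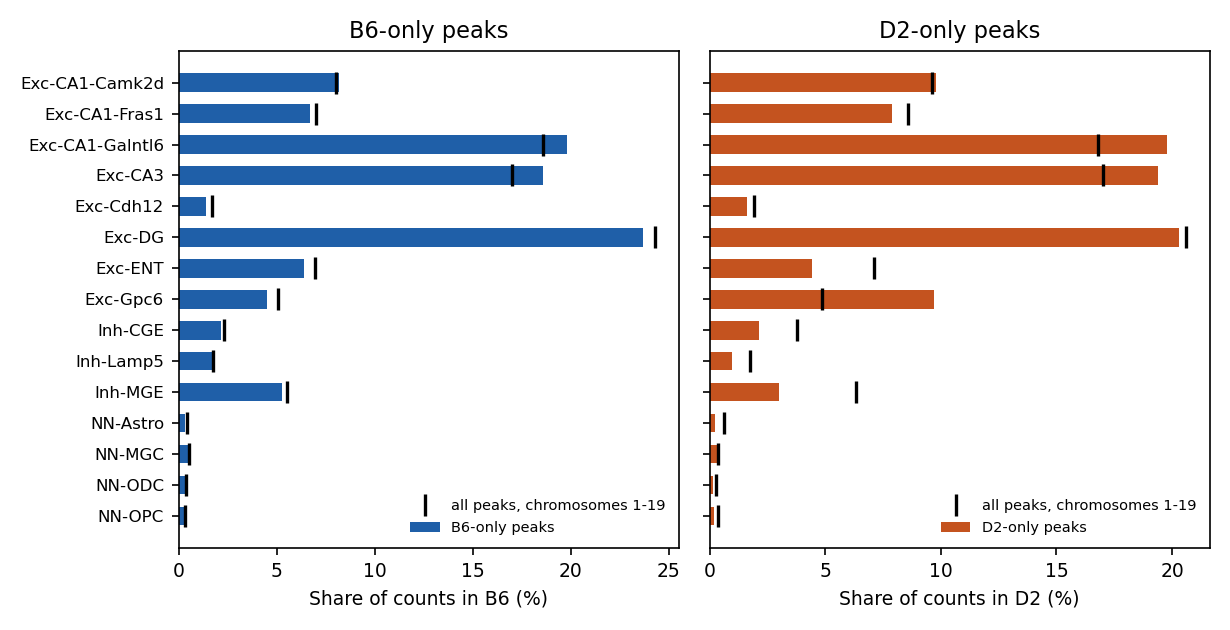
Bars give the percentage of the counts of B6-only peaks in B6 (left) and of D2-only peaks in D2 (right) that came from each of 15 cell types, and black ticks give the same percentage over all peaks on chromosomes 1 to 19. Bars and ticks lie close together on the left, while on the right Exc-Gpc6 stands above its tick (9.71% against 4.84%) and the inhibitory types below theirs.

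Single-nucleus RNA-seq was not used by the rule and gave a separate readout of genes at the peaks. Its D2 reads were also mapped to the exchanged copy of mm10, so differences in mapping can affect both readouts. Counts were summed over cell types in each library and tested with edgeR's quasi-likelihood test over 21549 transcripts with counts in both strains. Of these, 16.4% were lower and 15.4% were higher in D2 at an adjusted p under 0.05. In such sums, fewer nuclei of a type and less RNA per nucleus cannot be told apart. Rnaset2b, Tmem181a, Pnp2, Tagap1 and Sfi1 have close copies in the genome, so their RNA counts are uncertain where reads were shared among copies. The D2-only peaks at Gm12394 and 4930578G10Rik had 100% of their 32-mers on a scaffold. Those at A530032D15Rik had 88.5% and those at Sp110 had 75.2%. RNA counts of these genes may be uncertain in the same way, which was not tested. The genes listed with counts also differed between the strains. Gm49721 and 5830417I10Rik had counts in D2 alone and share B6-only peaks with Rnaset2b and 1500004A13Rik, respectively. Whether such differences in listing changed the counts of tested genes was not tested.

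Among transcripts at B6-only peaks, differences towards less RNA in D2 were the more frequent. Of 139 genes whose body or 2 kb upstream held a B6-only peak, 97 were in the RNA table and 78 could be tested. Of the 78, 36 were lower in D2, 6 were higher and 36 did not pass, beside 16.4% and 15.4% of all transcripts. Their median log2 difference was -0.20, against 0.01 over all. Of the 21 tested with a B6-only peak within 1 kb of a start site, 14 were lower and 2 higher. Of the 97 in the RNA table, 14 were listed at 0 in both B6 libraries and 3 in both D2 libraries, beside 8251 and 1007 of all 33902 symbols. Among the 3 was March1, chosen after its values were seen, with 48360 and 50239 counts in B6. It was not tested.

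D2-only peaks touched fewer genes. Of 47 genes, 29 were in the RNA table and 14 could be tested, with 6 higher in D2, 5 lower and 3 that did not pass, beside the 15.4% and 16.4% of all transcripts. These counts were 3 and 3 with DESeq2, and 2 and 3 with Exc-DG counts alone. The median log2 difference was 0.57. Of the 29, 10 were listed at 0 in both B6 libraries and 2 in both D2 libraries, and these could not be tested. The RNA gene lists differed between the strains, since 8251 of 33902 symbols were at 0 in both B6 libraries and 1007 in both D2 libraries.

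At the chromosome 3 cluster, Gon4l and 1500004A13Rik were lower in D2. Gon4l had 5089 and 5958 counts in B6 against 1615 and 1285 in D2, with no overlap. Its log2 difference was -1.76 ± 0.08 (SE), edgeR adjusted p = 1.2e-08. The noncoding 1500004A13Rik, which holds 10 of the peaks, had 9330 and 9661 in B6 against 3764 and 2960 in D2, a log2 difference of -1.33 ± 0.07, edgeR adjusted p = 4.2e-08. The pseudogene 5830417I10Rik in the same cluster, chosen after its values were seen, was listed at 0 in B6 and had 930 and 792 counts in D2, and it was not tested.

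Larger drops were seen at other B6-only peaks. The long noncoding RNA 1700026F02Rik had 898 and 1096 counts in B6 and 55 and 35 in D2, a log2 difference of -4.29 ± 0.16, edgeR adjusted p = 2.4e-09. The olfactory receptor gene Olfr1033 (-3.72), the antisense gene Gm20629 (-2.91) and the noncoding gene 9430037G07Rik (-2.29) were lower as well, from at most 119 counts in any library. Gm20629 is antisense to another gene, and whether the counting used strand is not given in the sources used here.

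Smaller differences were found at start sites of other genes. Rnaset2b, a ribonuclease gene, fell by 1.03 on the log2 scale, Tmem181a by 0.51 and Snhg14 by 0.49. Snhg14 is the long noncoding transcript of the imprinted Snrpn region, and it also holds 2 D2-only peaks beside its 5 B6-only peaks. A230059L01Rik fell by 0.94 and Gm14418 by 0.88. In 1 of 10 alternatives each, Rnaset2b and Gm14418 missed the threshold, with edgeR or DESeq2 adjusted p-values of 0.3 and 0.1.

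At the other named clusters the difference in RNA was small or did not pass. Macrod2, with 78737 and 81393 counts in B6 and 68183 and 52965 in D2, had a log2 difference of -0.23 ± 0.07, edgeR adjusted p = 0.022, which ranged up to 0.84 over the alternatives. Btn2a2 had -0.20 ± 0.36 (edgeR adjusted p = 0.71) from at most 37 counts in a library. Asap2 had -0.17 ± 0.08 (edgeR adjusted p = 0.11).

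A few transcripts went the other way at B6-only peaks. Zfp951, a zinc finger gene with a B6-only peak at its start site, had 260 and 246 counts in B6 and 1455 and 1215 in D2. Its log2 difference was 2.57 ± 0.10, edgeR adjusted p = 3.1e-09. Pnp2, a purine nucleoside phosphorylase gene, rose by 2.88 from 3 and 10 counts in B6 to 36 and 50 in D2. Tagap1 (1.02), the transcription factor gene Sox13 (0.90) and Nhsl1 (0.71) were also higher, with the peak outside the start site.

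At D2-only peaks the clearest gene was Sfi1. It had 2381 and 2344 counts in B6 and 17114 and 15270 in D2, a log2 difference of 2.95 ± 0.07, edgeR adjusted p = 7.1e-11. Pisd, chosen after its values were seen, has no member peak. It encodes the mitochondrial phosphatidylserine decarboxylase and had a log2 difference of 2.94 ± 0.08. A transcript annotated on the same scaffold as the Sfi1 copies, AC149090.1, had 14723 and 37255 counts in B6 and 0 in D2.

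Itln1 had 3 and 4 counts in B6 and 22 and 15 in D2, a log2 difference of 2.53 ± 0.48 (edgeR adjusted p = 0.0018). The noncoding Gm4425 was higher too, by 2.36 ± 0.19, and so were Abcg3, a transporter gene (0.91), and Gm7247 (0.90). The last 2 missed the threshold in 6 of 9 and 4 of 10 alternatives. Sp110, a nuclear body protein gene in the chromosome 1 array, had 0.77 ± 0.29 (edgeR adjusted p = 0.065).

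The chromosome 4 cluster had the opposite pattern, with peaks in D2 alone and less RNA in D2. Gm12394 had 215 and 328 counts in B6 and 61 and 57 in D2, a log2 difference of -2.02 ± 0.22 (edgeR adjusted p = 3.2e-05). 4930578G10Rik, which holds all 7 peaks, fell by 0.67, and 4 of 10 alternatives did not call it. Outside that cluster, A530032D15Rik fell by 2.18 and Dach1, a transcription cofactor gene, by 0.51. A530032D15Rik, from 4 to 27 counts in a library, was not called in 2 of 9 alternatives, and Dach1 was not called in 1 of 10 and changed sign in 1.

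Transcripts listed at 0 in both B6 libraries lay at peaks of both directions, and 8251 of all 33902 symbols were so listed. At D2-only peaks, Gm12895 had 1276 and 1486 counts in D2, and Gm28438, at the mitochondrial-like peak, had 1514 and 830. Both were at 0 in both B6 libraries and so were not tested. 4933427G23Rik, at a B6-only peak, was also at 0 in B6 and had 1491 and 1128 counts in D2.

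**Figure D5:**
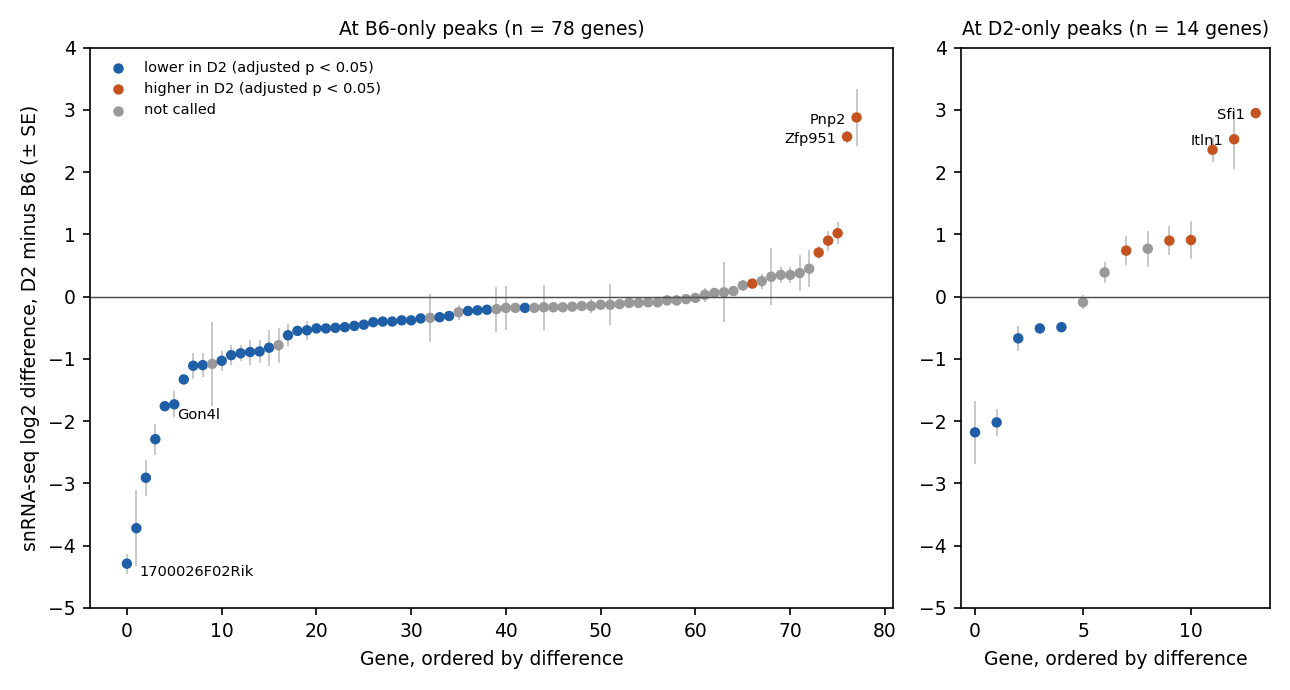
Points give the log2 difference in single-nucleus RNA counts, D2 minus B6, with its standard error, for the 78 genes tested at B6-only peaks (left) and the 14 at D2-only peaks (right), each ordered by size. Blue points were lower (36 and 5) and orange points higher in D2 (6 and 6) at an edgeR adjusted p under 0.05, and grey points did not pass.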

How the data were processed

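The authors deposited raw counts per peak and per transcript, summed over nuclei for each cell type and library, in B6 and D2 ventral hippocampus (single-nucleus ATAC-seq and RNA-seq). Per the labels and methods, reads were processed with Cell Ranger ATAC 2.0.0, Cell Ranger 6.0.2 and Seurat 4.0.5, peaks were called with MACS per sample and merged, and peaks in fewer than 10 nuclei were removed. The authors removed doublets with DoubletFinder before summing.

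Members and gene lists were chosen with earlier results of these data known. Counts were summed over cell types and libraries, and CPM was taken over all peaks. Neighbouring members within 100 kb were joined. Words of 32 bases were counted over chromosomes, the mitochondrial genome and 44 scaffolds of GRCm38. Genes were taken from GENCODE. RNA counts were tested with edgeR 4.0.16 (TMM, filterByExpr, at least 1 count in each strain, Benjamini-Hochberg threshold 0.05), with DESeq2 1.42.0 as an alternative. The fit was tested on simulated data. p-values measure the spread between 2 pooled libraries per strain.

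The 5 clusters with most members and the 5 highest peaks in each direction were named. Genes were named with a member within 1 kb of a start site (the 10 with the highest RNA level), with the 5 largest called differences in each direction. No column of the authors' own comparisons was used.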

Additional observations from a re-analysis of the deposited data

Results flagged for a closer look

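Outside the chromosomes the rule covers, B6 had 86786 counts at 43 peaks on unplaced or unlocalized scaffolds, and D2 had 0 counts at all of them. This is a signal in data that the comparisons above do not use. The scaffold that shares sequence with the Sfi1 cluster held 29 of these peaks, with 49695 B6 counts. Transcripts of 15 genes annotated only on scaffolds had 58508 counts in B6 and 0 in D2. Whether the D2 reference held these scaffolds was not tested.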

How the results depend on the processing

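Of the 84 values recomputed under alternatives, 60 stayed close to the value reported and 24 moved. Counts were called close within 1.5 times, and shares of unique words within their standard deviation over peaks. Reversals of direction were not assessed by these labels. With at least 200 counts, the members were 168 B6-only and 60 D2-only peaks. A ratio of at most 1/10 gave 160 D2-only peaks, and Exc-DG counts alone gave 109 B6-only and 55 D2-only peaks. With 10 counts in place of each library at 0, added after seeing the data, 111 and 34 remained. Leaving out 1 library gave 163 to 292 B6-only and 53 to 137 D2-only peaks. The lowest B6-only numbers, 168 and 163, came without B6 library 2 and without B6 library 3, and the lowest D2-only number came without D2 library 3. The limit of 100 counts then applies to fewer counts.

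For RNA, the 6857 transcripts called became 11972 when symbols at 0 in a strain were kept, of which 34.2% were lower in D2 against 51.6% of the 6857, and 4068 with Exc-DG counts alone. Keeping those symbols gave 14 genes higher in D2 at B6-only peaks and 10 at D2-only peaks. At D2-only peaks, DESeq2 called 3 genes lower and 3 higher, and Exc-DG counts 3 lower and 2 higher. With start sites within 10 kb, 22 genes at B6-only peaks and 2 at D2-only peaks were lower. Leaving out 1 library gave 4031 to 6542 transcripts, with the fewest without D2 library 3. Genes at B6-only peaks were then 28 to 35 lower and 5 to 6 higher, and genes at D2-only peaks 3 to 5 lower and 3 to 4 higher. The cause of these shifts was not tested.

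With the library number as a replicate block, edgeR called 7239 transcripts, with 39 genes lower and 7 higher at B6-only peaks and 5 lower and 6 higher at D2-only peaks. The libraries share only a number: the deviations of same-numbered libraries from their strain means correlated by 0.01. With 2 libraries per strain, both pairs give the same value by construction.

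Depth limits the weak members most. No value between 1 and 5 counts is listed, so the fold of a peak with about 100 counts and a listed 0 is not known.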

Other observations

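On the sex chromosomes, which the rule leaves out, 4 of the 6249 peaks on X met the limits for B6-only and 3 for D2-only. On Y, 2 of 43 peaks met them for B6-only and 10 for D2-only, with summed Y counts of 39259 in B6 and 33374 in D2.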
